A study of Mus musculus with 8 samples.

Results

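The mitochondrially encoded respiratory chain genes studied here are 10 protein-coding genes of mitochondrial DNA, chosen by symbol among the rows placed on chromosome M. They are mt-Nd1, mt-Nd2, mt-Nd4, mt-Nd5, mt-Nd6, mt-Cytb, mt-Co1, mt-Co2, mt-Co3 and mt-Atp6. The table of all genes holds 19 chromosome M rows among 20888 rows, and all 10 genes were found. RNA-seq was done on blasts of T-ALL, a leukaemia of immature T cells, that had been sorted from peripheral blood. All donor mice carry Vav-CRE, a recombinase transgene active in blood-forming cells. The control group has 4 libraries with wild-type Kdm6b and the other group 4 libraries labelled as homozygous for a mutant Kdm6b, the gene of a histone H3 lysine 27 demethylase. The series title ties KDM6B to NOTCH1-induced oncogenic stress. The labels give no ages and do not say whether a group's libraries come from separate mice, so the p-values capture only library-to-library spread, some of it possibly technical. Kdm6b RNA was at 514 ± 135 CPM in control libraries and 587 ± 92.2 CPM in the others (SD, n = 4 each), so the second group is called KO-labelled.

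Mitochondrial DNA is a small circle present in many copies per cell. Its protein-coding genes specify membrane subunits of complexes I, III and IV of the respiratory chain and of ATP synthase, while every subunit of complex II and most subunits of the other complexes come from nuclear genes. A mitochondrial RNA polymerase transcribes each strand as a long precursor, and the transfer RNAs that punctuate it are cut out to release the messengers. All the members but 1 lie on the same coding strand. mt-Nd6 lies on the other.

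In GRCm38 (mm10), by the GENCODE vM21 annotation, each of these genes is a single exon with no intron. The complex I genes are mt-Nd1 (chrM:2751-3707), mt-Nd2 (chrM:3914-4951), mt-Nd4 (chrM:10167-11544), mt-Nd5 (chrM:11742-13565), all on the plus strand, and mt-Nd6 (chrM:13552-14070, minus strand). The plus strand also holds mt-Co1 (chrM:5328-6872), mt-Co2 (chrM:7013-7696), mt-Atp6 (chrM:7927-8607), mt-Co3 (chrM:8607-9390) and mt-Cytb (chrM:14145-15288). Neighbouring genes overlap. mt-Atp8 and mt-Atp6 share 43 bases on 1 strand, mt-Nd4l and mt-Nd4 share 7, and mt-Atp6 and mt-Co3 share 1. mt-Nd5 and mt-Nd6 share 14 bases on opposite strands. The strand setting of the counting is not given in the sources used here, so reads from the 2 strands of these genes cannot be told apart. The longest overlaps, 1 on the same strand and 1 on opposite strands, are shown on the plus strand with the shared bases in capitals.
mt-Atp8 into mt-Atp6 (chrM:7917-7979): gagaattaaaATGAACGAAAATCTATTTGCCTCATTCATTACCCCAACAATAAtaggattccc
mt-Nd5 into mt-Nd6 (chrM:13542-13575): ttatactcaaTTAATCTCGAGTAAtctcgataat

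Several members also have near-identical copies on nuclear chromosomes, which bear on the levels of those genes. A run of adjacent pseudogenes on the minus strand of chromosome 1 repeats mt-Co2, mt-Atp6, mt-Co3 and parts of mt-Co1 and mt-Nd4. Gm28661 (chr1:24614885-24615565) matched mt-Co2 over 681 of 681 aligned bases, Gm10925 (chr1:24613974-24614651) matched mt-Atp6 over 678 of 678, and Gm28437 (chr1:24613189-24613971) matched mt-Co3 over 783 of 783. Gm28439 (chr1:24611535-24612410) matched the first 876 bases of mt-Nd4. Gm29216 (chr1:24615706-24616197) holds only the 3′ end of mt-Co1, in an exact run of 479 bases from position 1067 to position 1545, counted from 1 at the start of the gene. The first bases of mt-Co2 and of its copy, and the place where the mt-Co1 copy begins, are shown on the coding strand with the shared bases in capitals.
mt-Co2 (chrM:7013-7072): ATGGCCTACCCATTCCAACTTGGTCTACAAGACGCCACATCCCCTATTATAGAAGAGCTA
Gm28661 (chr1:24615506-24615565): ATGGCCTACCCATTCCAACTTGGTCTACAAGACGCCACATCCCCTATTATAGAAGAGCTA
mt-Co1 (chrM:6381-6440): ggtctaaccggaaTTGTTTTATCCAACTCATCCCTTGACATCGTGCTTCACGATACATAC
Gm29216 (chr1:24616138-24616197): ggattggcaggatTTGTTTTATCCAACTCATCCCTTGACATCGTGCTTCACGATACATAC

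A 100-base window of a member was counted as shared when the same letters occur in a GENCODE transcript from another chromosome, on either strand. Shared windows made up 99.5% of mt-Co2, 99.5% of mt-Atp6, 99.9% of mt-Co3, 60.8% of mt-Nd4, 30.8% of mt-Co1 and 3.19% of mt-Nd2. There were 0 shared windows in mt-Nd1, mt-Nd5, mt-Nd6 and mt-Cytb. A read from a shared window cannot be placed by its sequence alone, so the levels of the first 5 genes are uncertain, while the last 4 share no window of this length. At 50 bases mt-Nd5 shared 7.61% of its windows, and mt-Nd1, mt-Nd6 and mt-Cytb still shared 0.

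The deposited unit is CPM, a read count scaled to the same total in every library. The 10 genes together took between 0.981% and 1.22% of a library. Estimated depth ran from 18262840 to 22070670 reads for controls and from 14017970 to 18244180 reads for KO-labelled libraries. The latter were mostly shallower, but KO-labelled replicate 3 and control replicate 1 were nearly equal. By these estimates every value of a member rested on at least 1151 reads. Sex moved with the labels too: Xist was at 0 to 0.831 CPM in controls and 264 to 455 CPM in KO-labelled libraries, and Y-linked Ddx3y at 117 to 195 and 0.0714 to 0.548 CPM. The part of sex or depth in any difference was not tested, and sex and label cannot be told apart.

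No member of the set passed the test. By limma on log2(CPM + 1), with Benjamini-Hochberg adjustment over 13840 genes, 0 of 10 were called at an adjusted p below 0.05, against 3.53% of all genes tested. The lowest adjusted p was 0.155. At an unadjusted p below 0.05 there were 4 of 10 (mt-Co2, mt-Nd4, mt-Nd2 and mt-Atp6), against 19.3% of all genes, and all 4 were higher in the KO-labelled libraries, against 7.62% of genes in that direction. That count fell to 1 without control replicate 3 or without KO-labelled replicate 4, and to 2 without control replicate 1 or 2 or KO-labelled replicate 1 or 2. The log2 change was above 0 for 6 of 10, against 45.2% of genes. The median log2 change of the members was 0.15, beside -0.035 over all genes. The 10 are cut from shared precursors and some share reads, so they are not independent of each other. Over all 10 genes the 95% intervals reached from 0.625-fold to 1.57-fold. The authors' deposited list of 218 genes changed by at least 2-fold holds 0 of the members. The members' ratios of group means ran only from 0.793 (mt-Nd5) to 1.29 (mt-Co2), so that absence adds nothing to the test.

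**Figure D1:**
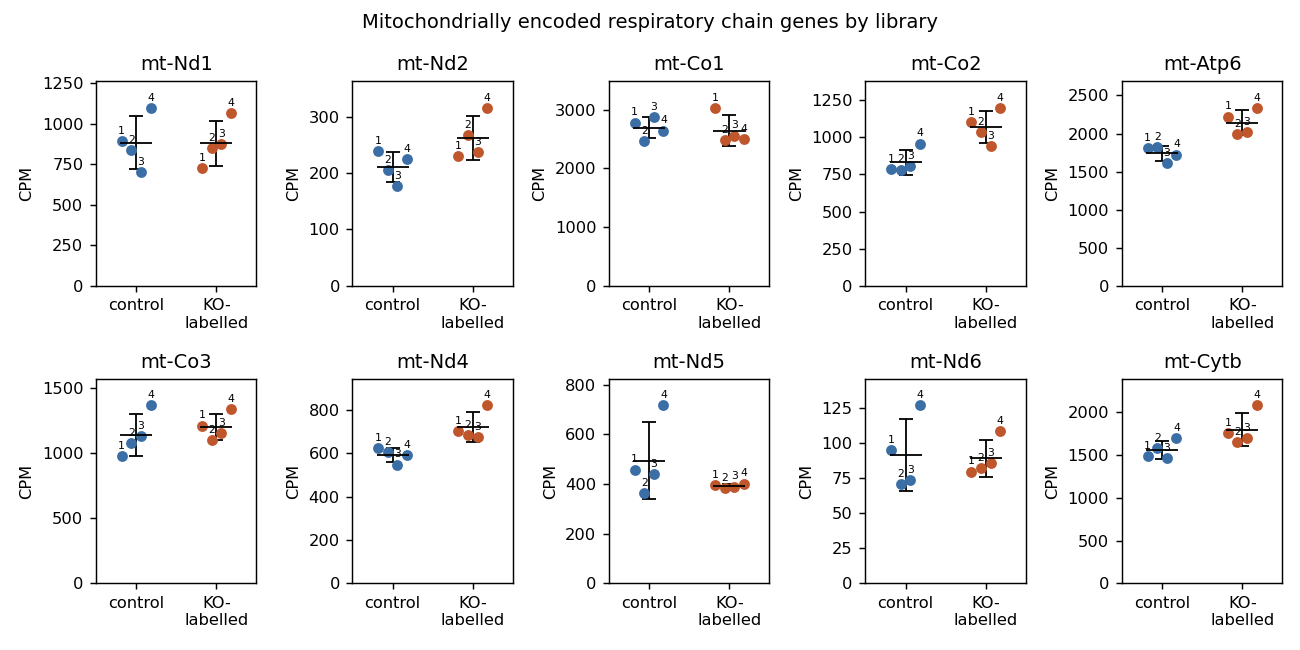
Level in CPM of each of the 10 genes in every library (points, numbered by replicate), with group mean and SD in black. For mt-Atp6 and mt-Nd4 every KO-labelled library lies above every control, and for the other 8 genes the groups overlap.

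The sum over the 10 genes was 10139, 9811, 9826 and 11144 CPM in control replicates 1 to 4, and 11468, 10525, 10641 and 12164 CPM in KO-labelled replicates 1 to 4. Control replicate 4 was the highest control and lay above KO-labelled replicates 2 and 3, so the groups overlapped. The means were 10230.0 ± 628 CPM and 11199 ± 768 CPM (SD, n = 4 each), a difference of 9.47%.

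Complex I takes electrons from NADH, and its mitochondrially encoded subunits form the proton-pumping membrane arm. mt-Nd1 encodes the subunit next to the quinone site, and its RNA was at 890.1, 837, 702 and 1098 CPM in control replicates 1 to 4 and 727, 849, 872 and 1063 CPM in KO-labelled replicates 1 to 4. The group ranges covered each other almost fully, and the log2 change was -0.0014 ± 0.16 (SE). mt-Nd2, an antiporter-like subunit, was at 239, 205, 177 and 224 CPM in control libraries and 229, 268, 238 and 316 CPM in the KO-labelled libraries. KO-labelled replicate 4 was the highest of the 8, and control replicate 1 lay above KO-labelled replicates 1 and 3. Its log2 change was 0.31 ± 0.14 (SE), with a limma adjusted p of 0.244.

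mt-Nd4, another antiporter-like subunit, was at 626, 605, 548 and 592 CPM in control replicates 1 to 4. It was at 703, 684, 676 and 821 CPM in KO-labelled replicates 1 to 4, all above the highest control. Not overlapping in this direction held for 2 of 10 members, mt-Nd4 and mt-Atp6, against 5.23% of all genes. The mean of mt-Nd4 was 593 ± 32.8 CPM in control libraries and 721 ± 67.5 CPM in the KO-labelled libraries (SD, n = 4 each), a log2 change of 0.28 ± 0.12 (SE) with a limma adjusted p of 0.214.

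mt-Nd5, the distal antiporter-like subunit, had the lowest log2 change of the members. Its RNA was at 459, 363, 441 and 717 CPM in control replicates 1 to 4, and at 397, 382, 389 and 401 CPM in KO-labelled replicates 1 to 4. The controls were spread on both sides of the KO-labelled libraries, which lay close together (392 ± 8.43 CPM, SD, n = 4). The log2 change was -0.29 ± 0.18 (SE), with a limma adjusted p of 0.410. With single libraries left out it ran from -0.42 without control replicate 2 (limma adjusted p 0.217) to -0.094 without control replicate 4. Without that library the control mean was 421 CPM in place of 495 CPM.

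mt-Nd6 is the member on the minus strand and encodes a small membrane subunit of complex I. It was at 94.7, 70.7, 73.6 and 127 CPM in control libraries and 79.6, 82.1, 85.7 and 109 CPM in the KO-labelled libraries. Control replicate 4 was again the highest of the 8, followed by KO-labelled replicate 4. The log2 change was -0.0092 ± 0.18 (SE).

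Complex III passes electrons from quinol to cytochrome c, and mt-Cytb encodes its subunit cytochrome b, which carries haem. The RNA was at 1481, 1578, 1459 and 1693 CPM in control replicates 1 to 4 and at 1754, 1647, 1699 and 2076 CPM in KO-labelled replicates 1 to 4. All KO-labelled libraries but replicate 2 lay above every control. The log2 change was 0.20 ± 0.14 (SE), and its 95% interval reached from -0.091 to 0.50. Without KO-labelled replicate 4 the change was 0.13.

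Complex IV reduces oxygen to water. mt-Co1 encodes the catalytic subunit with the haem and copper centre at which oxygen binds, and its RNA was at 2781, 2470.3, 2877 and 2645 CPM in control replicates 1 to 4. It was at 3037, 2479, 2562 and 2499 CPM in KO-labelled replicates 1 to 4. KO-labelled replicate 1 was the highest of the 8 and the other 3 fell within the control range. The log2 change was -0.029 ± 0.15 (SE).

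mt-Co2 encodes the subunit that accepts electrons from cytochrome c at a copper site. It was at 784, 783, 805 and 959 CPM in control libraries and 1105, 1036, 942 and 1200.3 CPM in the KO-labelled libraries. Control replicate 4 alone overlapped, lying above KO-labelled replicate 3. The means were 833 ± 84.6 CPM and 1071 ± 109 CPM (SD, n = 4 each), and the log2 change of 0.36 ± 0.13 (SE) had the lowest limma adjusted p of the members, 0.155. Without control replicate 4 that value was 0.0442 and with array weights 0.0293, and over all alternatives it ran from 0.0293 to 0.326. mt-Co3, a core subunit without metal centres, was at 979.7, 1079.85, 1131 and 1367 CPM in control replicates 1 to 4 and 1213, 1104, 1157 and 1339 CPM in KO-labelled replicates 1 to 4. The KO-labelled libraries lay inside the control range, and the log2 change was 0.085 ± 0.14 (SE). It ran from 0.016 without control replicate 1 to 0.18 without control replicate 4, with 0.033 without KO-labelled replicate 4 and 0.041 with its copy added.

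ATP synthase uses the proton gradient to make ATP, and mt-Atp6 encodes the subunit that carries protons past its rotating ring. Its RNA was at 1806, 1819, 1612 and 1722 CPM in control replicates 1 to 4 and at 2223, 1993, 2019.5 and 2339 CPM in KO-labelled replicates 1 to 4. Every KO-labelled library lay above every control. The means were 1739.85 ± 95.1 CPM and 2144 ± 166 CPM (SD, n = 4 each), and the log2 change was 0.30 ± 0.13 (SE), with a limma adjusted p of 0.245. mt-Atp8, the ATP synthase gene that overlaps it and is not among the 10, was at 203 ± 17.9 and 304 ± 58.0 CPM (SD, n = 4 each), also with no overlap. Its log2 change of 0.56 ± 0.15 (SE) had a limma adjusted p of 0.0606, and over the alternatives the adjusted p ran from 0.0219 to 0.161, with the replicate block at 0.0258, without control replicate 4 at 0.0414 and without KO-labelled replicate 3 at 0.0292.

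**Figure D2:**
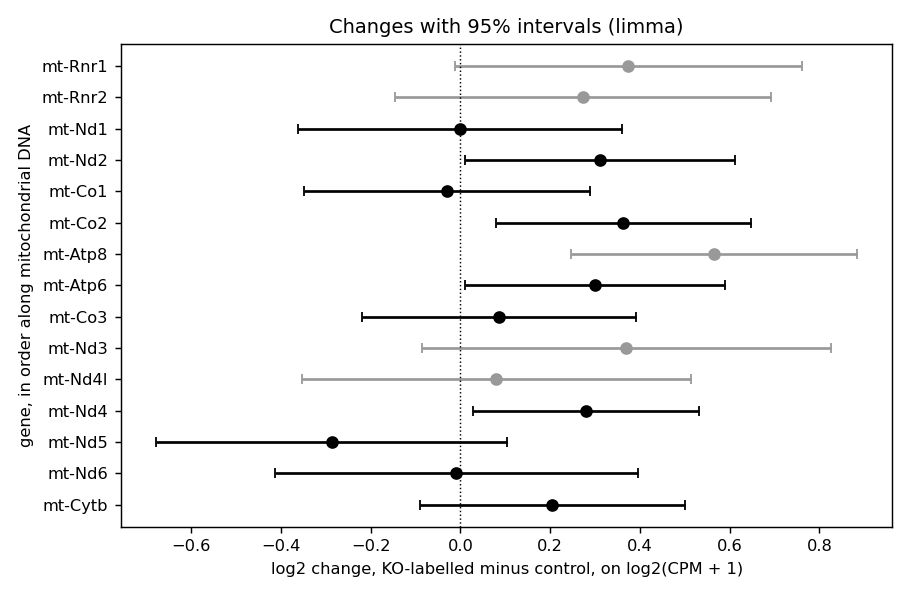
Log2 change (KO-labelled minus control, log2(CPM + 1) scale) with its 95% interval from limma, for the 10 genes (black) and the other tested chromosome M genes (grey), in order along mitochondrial DNA. The changes of the 10 genes run from -0.29 for mt-Nd5 to 0.36 for mt-Co2.

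The other chromosome M rows were not called either. mt-Nd3 and mt-Nd4l, small complex I subunits, had means of 39.6 ± 9.69 (control) and 51.8 ± 14.8 CPM, and of 23.4 ± 5.05 (control) and 24.9 ± 6.17 CPM (SD, n = 4 each). The mitochondrial ribosomal RNAs mt-Rnr1 and mt-Rnr2 had log2 changes of 0.37 ± 0.18 and 0.27 ± 0.19 (SE), which fell to 0.23 for mt-Rnr1 without KO-labelled replicate 2 and to 0.12 for mt-Rnr2 with quantile normalization. Their summed level was 4716, 3383, 4146 and 3699 CPM in control replicates 1 to 4 and 5525, 5725, 3963 and 4231 CPM in KO-labelled replicates 1 to 4. KO-labelled replicates 1 and 2 stood highest there, whereas replicate 4 was the highest of its group for 9 of the 10 members.

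Levels of different genes were compared per kb of gene length, as CPM per kb averaged over the 8 libraries. mt-Atp6 was highest at 2851 ± 366 CPM per kb (SD over 8 libraries), above mt-Co1 in 8 of 8 libraries. mt-Co1 (1727 ± 136), mt-Co3 (1494 ± 167), mt-Cytb (1463 ± 169) and mt-Co2 (1392 ± 228 CPM per kb) followed. Within this run each gene exceeded the next in 6, 3 and 6 of 8 libraries, so their order was not the same in every library. mt-Nd1 (919 ± 147), mt-Nd4 (477 ± 61.3), mt-Nd5 (243 ± 62.8), mt-Nd2 (228 ± 40.0) and mt-Nd6 (174 ± 36.7 CPM per kb) came lower. mt-Nd5 exceeded mt-Nd2 in 4 of 8 libraries, so that pair was not separated. The span from mt-Atp6 to mt-Nd6 was 16.4-fold, and all 5 complex I genes lay below the other members. Overlapping neighbours on the same strand also differed by this measure. mt-Nd4l stood at 81.3 CPM per kb beside mt-Nd4 at 477, and mt-Atp8 at 1243 beside mt-Atp6 at 2851. CPM per kb is therefore a measure of counted reads, and the part of library preparation, gene length or counting in this order was not tested.

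**Figure D3:**
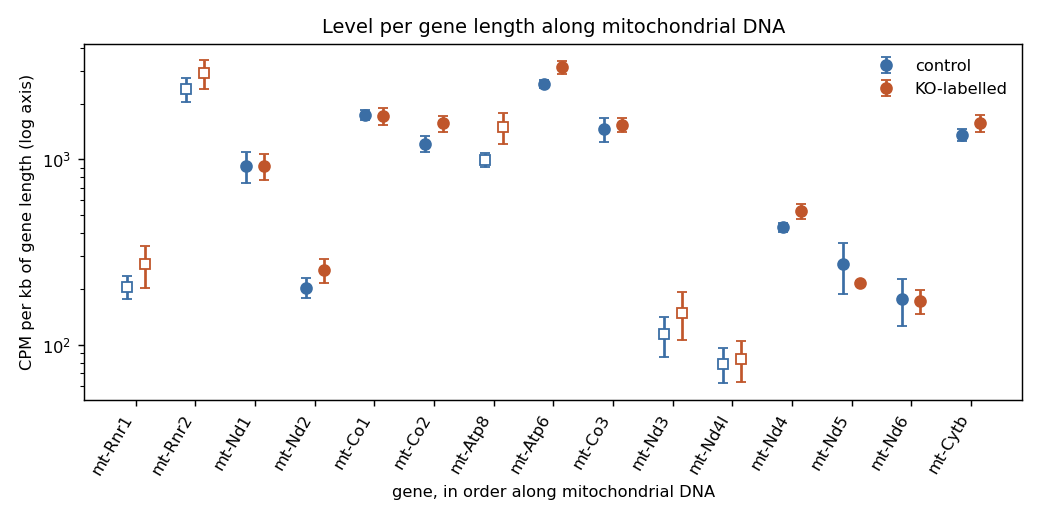
Mean CPM per kb of gene length (log axis) with SD over 4 libraries, in order along mitochondrial DNA, for controls (blue) and KO-labelled libraries (orange). Filled circles are the 10 genes and open squares other chromosome M genes. mt-Atp6 is the highest of the 10 and mt-Nd6 the lowest in either group.

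Shares within the sum of the 10 genes differed for 3 of the 10 without overlap between the groups. Such shares exist only within the 10, so no share over all genes can be set beside this count. mt-Atp6 made up 17.1 ± 1.39% of the sum in the controls and 19.1 ± 0.213% in the KO-labelled libraries, and mt-Co2 8.13 ± 0.367% and 9.55 ± 0.476% (SD, n = 4 each). The share of mt-Nd5 was 4.79 ± 1.16% and 3.51 ± 0.167%, with control replicate 4 at 6.43%. Its lowest control, at 3.70%, lay just above the highest KO-labelled library, at 3.66%. The most abundant member, mt-Co1, took 26.4 ± 2.45% and 23.7 ± 2.44%, with overlap. These shares sum to a fixed total, so a gain of one is a loss of others, and no test was made on them. They leave out reads listed under the nuclear copies, which mt-Atp6, mt-Co2 and mt-Co1 all have.

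Reads listed under the chromosome 1 copies were as abundant as some members. Gm10925 was at 1193 ± 35.4 CPM in control libraries and 1468 ± 227 CPM in the KO-labelled libraries, Gm28437 at 1066 ± 149.9 and 1054 ± 55.1 CPM, and Gm28661 at 709.96 ± 40.6 and 809.9 ± 62.4 CPM (SD, n = 4 each). Of each pair's summed CPM, the copy held 40.7 ± 0.654% and 40.5 ± 2.23% for mt-Atp6, 48.3 ± 1.2% and 46.7 ± 1.22% for mt-Co3, and 46.1 ± 1.54% and 43.1 ± 1.53% for mt-Co2. For mt-Nd4, whose copy matches the gene over most of its length, the copy held only 0.387 ± 0.0838% and 0.332 ± 0.0658%. The table thus lists the reads of identical sequence under both names for 3 pairs and almost wholly under the mitochondrial name for this one. These shares depend on how the counting assigned such reads, which is not given.

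The pair of mt-Co1 stood apart in its groups. Gm29216, the copy of its 3′ end, was at 646 ± 66.5 CPM in control libraries and 956 ± 151 CPM in the KO-labelled libraries (SD, n = 4 each), a log2 change of 0.56 ± 0.14 (SE) with a limma adjusted p of 0.0625. That adjusted p was 0.0369 with array weights and 0.0440 without KO-labelled replicate 3, and reached 0.153 among the alternatives. Its share of the pair was 20.2%, 19.0%, 19.6% and 18.4% in control replicates 1 to 4, and 26.4%, 26.7%, 23.0% and 29.9% in KO-labelled replicates 1 to 4. All 4 KO-labelled libraries were above all 4 controls. The exact two-sided permutation p over 70 assignments was 0.0286, the smallest this design can give. After Benjamini-Hochberg adjustment over the 7 copy pairs compared it was 0.200. A single pair at that smallest p could not pass this correction whatever its values, so the adjusted value decides nothing about this pair. Pairs were compared after these values had been seen.

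With each member summed with its copies, 0 of 10 were called by limma and 2 of 10 had an unadjusted p below 0.05. The log2 change of mt-Co1 became 0.11 ± 0.15 (SE), with a limma adjusted p of 0.758, and that of mt-Co2 became 0.28. Summing also changed the order of levels. Per kb, mt-Atp6 stood at 4805 ± 659 CPM, followed by mt-Co3 (2846 ± 290.0), mt-Co2 (2503 ± 327), mt-Co1 (2247 ± 206) and mt-Cytb (1463 ± 169 CPM per kb, SD over 8 libraries), with the complex I genes below as before.

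**Figure D4:**
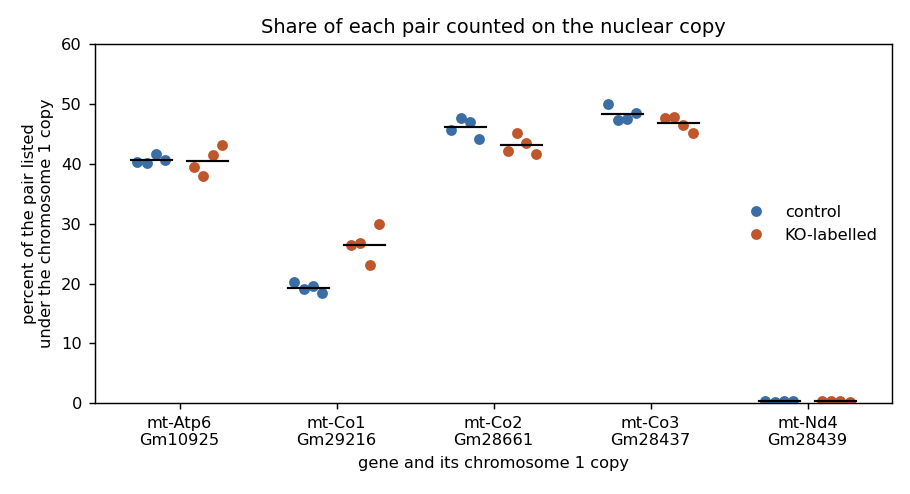
Percent of the CPM of each pair (gene plus chromosome 1 copy) that the deposited table lists under the copy, for every library (points) with group means (lines). The groups are apart for mt-Co1 and Gm29216, with 18.4% to 20.2% in the controls and 23.0% to 29.9% in the KO-labelled libraries, and overlap for the other 4 pairs.

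Nuclear genes that work with the mitochondrial genome were counted by list. Of 80 nuclear-encoded subunits of complexes I to IV and ATP synthase, 0 passed the limma test in either direction. An unadjusted p below 0.05 was seen in 6, against 19.3% of all genes, and the median log2 change of the 80 was 0.0024. The lowest p in complex I was that of Ndufa3, which was higher (129 ± 16.9 and 177 ± 51.3 CPM, SD, n = 4 each, limma adjusted p = 0.214). The lowest p in complex III was that of the Rieske protein gene Uqcrfs1 (165 ± 25.9 and 124 ± 2.83 CPM, SD, n = 4 each, adjusted p = 0.0994), and in complex II that of the anchor subunit gene Sdhd (142 ± 27.1 and 104 ± 10.8 CPM, adjusted p = 0.124). Among 20 genes of mitochondrial DNA transcription and replication 0 were called. At an unadjusted p below 0.05 there were 4, all lower, a share near the 19.3% of all genes. Polrmt, the mitochondrial RNA polymerase gene, was at 47.1 ± 3.11 and 34.4 ± 2.61 CPM (log2 change -0.44 ± 0.12, SE, limma adjusted p = 0.0696). Of 31 genes of mitochondrial RNA processing, stability and decay 0 were called, with 3 at an unadjusted p below 0.05, of which 2 were higher and 1 lower.

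Translation of these messengers needs a dedicated ribosome. Of 49 large-subunit genes 0 were called, and 10 had a log2 change above 0, against 45.2% of all genes, with a median of -0.14. At an unadjusted p below 0.05 there were 7, of which 2 were higher and 5 lower, against 19.3% of all genes in either direction. The lowest p was that of Mrpl24, which was higher without overlap (132 ± 15.2 and 174 ± 11.9 CPM, SD, n = 4 each, limma adjusted p = 0.0857). Of 30 small-subunit genes 6 had a log2 change above 0, with a median of -0.11, and 1 was called. That gene, Mrps6, rose from 29.8 ± 6.88 to 74.4 ± 25.0 CPM (log2 change 1.26 ± 0.23, SE, limma adjusted p = 0.0167). It was no longer called when control replicate 1, KO-labelled replicate 1 or KO-labelled replicate 2 was left out (adjusted p up to 0.0668). Of 32 translation factors, insertion factors and aminoacyl-tRNA synthetases 1 fell, the release factor family gene Mtrf1, from 6.68 ± 1.39 to 3.16 ± 0.811 CPM (adjusted p = 0.0465), with the call lost without any 1 of the 8 libraries (adjusted p 0.0508 to 0.118). Of 38 assembly factors 1 fell, Cox15, of haem A synthesis for complex IV, from 38.6 ± 3.69 to 25.5 ± 2.35 CPM (adjusted p = 0.0398, up to 0.135 over the alternatives). It was no longer called when control replicate 1, control replicate 3 or any KO-labelled library was left out.

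Among 13 regulators of mitochondrial biogenesis 0 passed by limma and 3 had an unadjusted p below 0.05, all lower, against 19.3% of all genes. Their summed level was 737 to 931 CPM in the controls and 599 to 700 CPM in the KO-labelled libraries. Nrf1, a transcription factor gene for nuclear genes of mitochondrial function, was at 187 ± 8.78 and 156 ± 6.48 CPM (limma adjusted p = 0.172). Myc was at 117 ± 118 and 37.1 ± 10.3 CPM (limma adjusted p = 0.183), with control replicate 4 at 292 CPM. Limma also called 0 of 13 genes of mitophagy and mitochondrial dynamics and 0 of 14 of the mitochondrial unfolded protein response. At an unadjusted p below 0.05 there were 3 of the former, all lower, and 1 of the latter, Clpp, which was higher. Over the 14 lists, each gene counted once, 3 of 319 tested genes were called, or 0.940%, against 3.53% of all genes.

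Among genes with a mean of at least 50 CPM outside chromosome M, those whose profile over the 8 libraries was most like the mean profile of the 10 were Ntan1 (an N-terminal asparagine amidase gene), Psmc5 (a proteasome ATPase subunit gene), Pcmt1 (a protein repair methyltransferase gene), Dcaf13 and H3f3c. Likeness was the root mean square difference of centred log2(CPM + 1) values, which was 0.0426 to 0.0520 for these 5 and had a median of 0.261 over the 4459 genes compared. Among the members themselves mt-Cytb was nearest to the mean profile (0.0765) and mt-Nd5 farthest (0.272). The mean profile was highest in KO-labelled replicate 4 (0.23) and control replicate 4 (0.15), and lowest in control replicate 3 (-0.18).

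The libraries carried the labelled cell type's markers. All 17 T lineage genes were tested and none was called by limma (2 at an unadjusted p below 0.05), with summed levels of 20440 to 27536 CPM in the controls and 24902 to 30493 CPM in the KO-labelled libraries. Summed erythroid markers (9 of 10 in the table) ran from 60.7 to 1266 CPM and from 164 to 950.4 CPM, neutrophil and monocyte markers (11 of 12) from 118 to 306 and from 116 to 257 CPM, and NK markers (8 of 9) from 147 to 390 and from 176 to 416 CPM. Of 10 neutrophil and monocyte markers tested, limma called 0 and 6 had an unadjusted p below 0.05, against 19.3% of all genes. S100a8, S100a9 and Lcn2 were higher and Csf1r, Itgam and Mpo lower in the KO-labelled libraries at that level, and the median log2 change of the 10 was -0.43. These 6 are named after their values were seen. Summed B cell markers (8 of 9) did not overlap, at 659 to 817 and 846 to 879 CPM, but most of that was Ighm (745 ± 78.1 and 823 ± 19.6 CPM). Cd79b, the next most abundant, was only at 13.8 ± 2.25 and 16.1 ± 3.56 CPM, with overlap. Of the 4 tested limma called 0. That sum therefore follows 1 gene and is no measure of B cells. Platelet markers (6 of 8) summed to at most 16.9 CPM. None of the markers in the table was at 0 in every library, and their part in the levels of the mitochondrial genes was not tested. In sorted cells measured in bulk, fewer cells of a type and less RNA per cell cannot be told apart.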

How the data were processed

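RNA was sequenced from 8 libraries of sorted mouse T-ALL blasts, 4 per group. Per the labels' protocols, the kits were NucleoSpin RNA XS for extraction and SMARTer Ultra Low RNA for libraries. Per the submitters' processing notes, STAR 2.7.3a, Partek 10.0.22.0524 and mm10 were used. No source used here gives the gene counter, its strand setting or its treatment of reads that match several places. Some values are fractions of a read. Gm28438, the chromosome 1 copy of mt-Nd3, was at 0.000226 CPM in KO-labelled replicate 2, where 1 read is worth an estimated 0.0713 CPM. CPM was deposited by the authors for 20888 genes with 0.0001 added, which was subtracted. The authors' deposited list of 218 genes gives group means and a signed fold, held as scores and used only to look for members.

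Depth was estimated from the step between low values. Of values worth under 200 reads, 70.5% to 73.2% were whole within 0.02 reads, which is too few to recover counts, so no count model was used. The filter kept genes at or above 1 CPM in 4 or more libraries, and log2(CPM + 1) was fitted with limma 3.58.1 in R 4.3.3 (lmFit, eBayes with trend), two-sided, Benjamini-Hochberg over 13840 genes. Such log2 changes understate changes of low genes. Positions, lengths and copies come from GENCODE vM21 (GRCm38), which may differ from the authors' annotation. Copies were found among its transcripts only. Alternatives were pseudocounts of 0.5 and 5, other filters and scalings, array weights, a replicate block, each library left out and, chosen after seeing the data, members summed with their copies. The fit was checked on simulated data.

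Genes named are the 10 members, the other chromosome M rows, up to 4 called genes (or the 2 with the lowest p) of each pathway list, of which some are given as counts, the 2 most abundant markers of each cell type and the 5 most alike genes. The members and lists were chosen with earlier results of these data known.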

Additional observations from a re-analysis of the deposited data

Results flagged for a closer look

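Of 44 groups of 4 libraries checked for a library far from the others (chromosome M genes, their sum and the shares of their copies), 2 stood out by Dixon's ratio of gap to range, which passed its 95% critical value. Chance flags about 1 in 20 such groups. For mt-Co1, KO-labelled replicate 1 was at 3037 CPM while the other 3 libraries of its group were between 2479 and 2562 CPM. For mt-Co2, control replicate 4 was at 959 CPM while the other 3 controls were between 783 and 805 CPM.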

How the results depend on the processing

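The count of called members was 0 in 16 of the 18 alternatives and 1 (mt-Co2) with array weights and without control replicate 4, so it ran from 0 to 1 with single libraries left out. The count of called genes in the whole table was 488 and rose to 1313 with array weights, and it ran from 81 to 670 with single libraries left out (96 when control replicate 1 was left out, 178 for control replicate 3, and 150, 81 and 170 for KO-labelled replicates 1, 2 and 4). The log2 ratio of the groups' mean sums over the members was 0.13, and between 0.089 and 0.17 with single libraries left out. Some changes near 0 turned sign. That of mt-Nd1 was 0.0015 scaled over genes outside chromosome M, 0.028 with median of ratios scaling and 0.044 with array weights. That of mt-Nd6 was 0.020 with median of ratios scaling, 0.030 with quantile normalization and 0.050 with array weights. That of mt-Co1 was 0.00016, 0.0095 and 0.11 with median of ratios scaling, quantile normalization and copies summed. With single libraries left out the ranges were -0.10 to 0.11 for mt-Nd1, -0.12 to 0.16 for mt-Nd6, -0.098 to 0.0031 for mt-Co1 and -0.068 to 0.21 for mt-Nd4l. The cause was not tested. With the replicate block 0 members were called and 509 genes in all. Same-numbered libraries had correlations of deviations of 0.15, 0.07, -0.10 and 0.18, and those of differently numbered libraries ran from -0.26 to 0.35. The labels do not say whether a number pairs libraries, and these few correlations cannot decide it. The call of Mtrf1 was also lost with no filter, median of ratios scaling, quantile normalization and the replicate block, and that of Cox15 with no filter and quantile normalization (adjusted p 0.0510 to 0.0917). Reads that match both a member and a nuclear copy limit what can be said of mt-Co1, mt-Co2, mt-Co3 and mt-Atp6.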

Other observations

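The table also lists 4 mitochondrial transfer RNA genes at low levels, which were not tested. A floor of 3 reads is 0.136 to 0.214 CPM and covers counting error only. The levels of mt-Tl1, mt-Tp, mt-Tq and mt-Ts1 were at most 0.544 CPM in any control. In the KO-labelled libraries replicate 4 was the highest for each of them, at 0.987, 0.846, 1.41 and 3.31 CPM, by estimate 14, 12, 20 and 47 reads.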
